A study of Bos taurus with 15 samples.

Results

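A set of 8 genes of retinoid handling, out of the 27270 genes in the deposited count matrices, was followed through single-cell libraries of the cattle digestive tract. They were taken by symbol and were RBP2 (ENSBTAG00000015056), RBP4 (ENSBTAG00000000442), LRAT (ENSBTAG00000017167), DHRS3 (ENSBTAG00000024493), ALDH1A1 (ENSBTAG00000008103), ALDH1A2 (ENSBTAG00000010119), CYP26A1 (ENSBTAG00000021118) and CYP26B1 (ENSBTAG00000012212). The study sampled untreated Holstein dairy cattle at 2 stages, with 1 library per tissue and stage. The newborn stage (NB, with no age in days in the labels) gave 11 libraries: 3 of stomach chambers (the stratified forestomachs reticulum and omasum, and the glandular abomasum), 3 of small intestine (duodenum, jejunum and ileum), 3 of large intestine (cecum, colon and rectum), and 1 each of salivary gland and liver. The adult stage (AD) gave 4 libraries, from the duodenum, jejunum, cecum and colon of a single lactating cow. The calf behind each NB library was not given, and the tissues were taken apart with different enzymes at the 2 stages: a lamina propria kit for AD duodenum and cecum, a multi-tissue kit for AD jejunum and colon, and EDTA and trypsin followed by a lamina propria kit for NB intestine. Stage, animal and dissociation therefore cannot be told apart. The NB stomach chambers were treated with EDTA and trypsin and then with collagenases, hyaluronidase, DNase and dispase. NB liver was treated with collagenase, papain and DNase, and NB salivary gland with collagenase, dispase and DNase. Between NB stomach chambers, intestine, liver and salivary gland, tissue and dissociation cannot be told apart either.

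Vitamin A reaches the gut as retinyl esters and carotenoids, is carried inside enterocytes as retinol or retinal and is stored as retinyl ester, above all in the stellate cells of the liver. Retinol is oxidised to retinal by reversible enzymes and retinal to retinoic acid, a ligand of nuclear receptors, by aldehyde dehydrogenases, and retinoic acid is in turn broken down by cytochrome P450 enzymes of the CYP26 family. In the gut, retinoic acid is known for its part in epithelial differentiation, in vessel growth and in the homing of lymphocytes. Among the genes followed here, RBP2 is the retinol carrier inside enterocytes and RBP4 the carrier that brings retinol into plasma. LRAT esterifies retinol and DHRS3 reduces retinal back to retinol. ALDH1A1 and ALDH1A2 make retinoic acid, and CYP26A1 and CYP26B1 clear it.

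The libraries held 172405 cell barcodes, of which 129682 passed the study's limits on genes, unique molecular identifiers (UMIs, each standing for 1 captured RNA molecule) and mitochondrial RNA. Total UMIs per library ran from 17707625 to 129458578 (median 82195756). A barcode was put in the epithelial group when it had a UMI of EPCAM or KRT14, in the leukocyte group with PTPRC, in the stromal group with COL1A2 and in the endothelial group with PECAM1, and only when it had none of the other gate genes. This gave 28491 epithelial, 46551 leukocyte, 9560 stromal and 8875 endothelial barcodes, while 10.8% of the kept barcodes had several gates and 17.2% had none. Pairs of libraries shared 4 to 84 barcode sequences (median 37 over 105 pairs). Groups of under 20 barcodes were given no level, which removed the stromal group of AD duodenum and AD cecum and the leukocyte group of NB reticulum and NB omasum.

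A level is given as CPM, the UMIs of a gene scaled to 1e+06 UMIs of its group, with its exact Poisson 95% interval, and a ratio of levels with its exact conditional binomial 95% interval. With 1 library per group these intervals cover counting error only, no difference between tissues or stages has a replicate check, and no p-value is given. A gene was tested in a comparison when it had at least 10 CPM in either group, and was called when the levels, each with 5 CPM added, differed at least 4-fold.

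The epithelial, leukocyte and stromal groups held the markers of their names, and some PECAM1 groups held more leukocyte than endothelial markers. Summed over 5 other endothelial markers (CDH5, CLDN5, KDR, TIE1 and EGFL7), the PECAM1 groups ran from 33.4 to 4094 CPM (median 2847), and the lowest was AD duodenum, where 5 leukocyte markers summed to 618 CPM. In AD cecum the endothelial markers summed to 753 CPM and the leukocyte markers to 1384 CPM, in NB liver to 835 and 2297 CPM, and in the 21 barcodes of NB salivary gland to 2291 and 3115 CPM. The epithelial group of AD duodenum was small, with 52 barcodes, and had 1082 CPM of the leukocyte markers beside 2207 CPM of its own. The part of these other cells in the values below was not tested. Counts of NB against AD calls are given with and without the PECAM1 groups of AD duodenum and AD cecum. Other counts and shares include these groups unless stated.

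Each gene except CYP26A1 was at least 4-fold higher in 1 lineage than in every other lineage of the same library in at least 1 library. Of 79 tests of a gene in a library, 27 gave a stromal call, 10 an epithelial call, 10 an endothelial call and 0 a leukocyte call. Over all genes and libraries, 4.28% of tests gave a stromal call, 3.48% an epithelial call, 1.93% an endothelial call and 1.78% a leukocyte call. The stromal calls were those of RBP4 in 11 of the 13 libraries with a stromal group, of ALDH1A2 in 10 of 13, of ALDH1A1 in NB omasum, NB abomasum and AD colon, of CYP26B1 in NB reticulum and NB omasum, and of LRAT in NB liver. RBP2 gave 6 of the epithelial calls. DHRS3 and CYP26B1 were endothelial in the same 5 libraries, NB duodenum, NB jejunum, NB ileum, NB colon and AD jejunum. When barcodes with several gates were kept, the epithelial calls became 6 and the endothelial calls 5. The stromal calls then became 9 for RBP4, 7 for ALDH1A2 and 1 for ALDH1A1, and those of CYP26B1 and LRAT stayed.

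**Figure D1:**
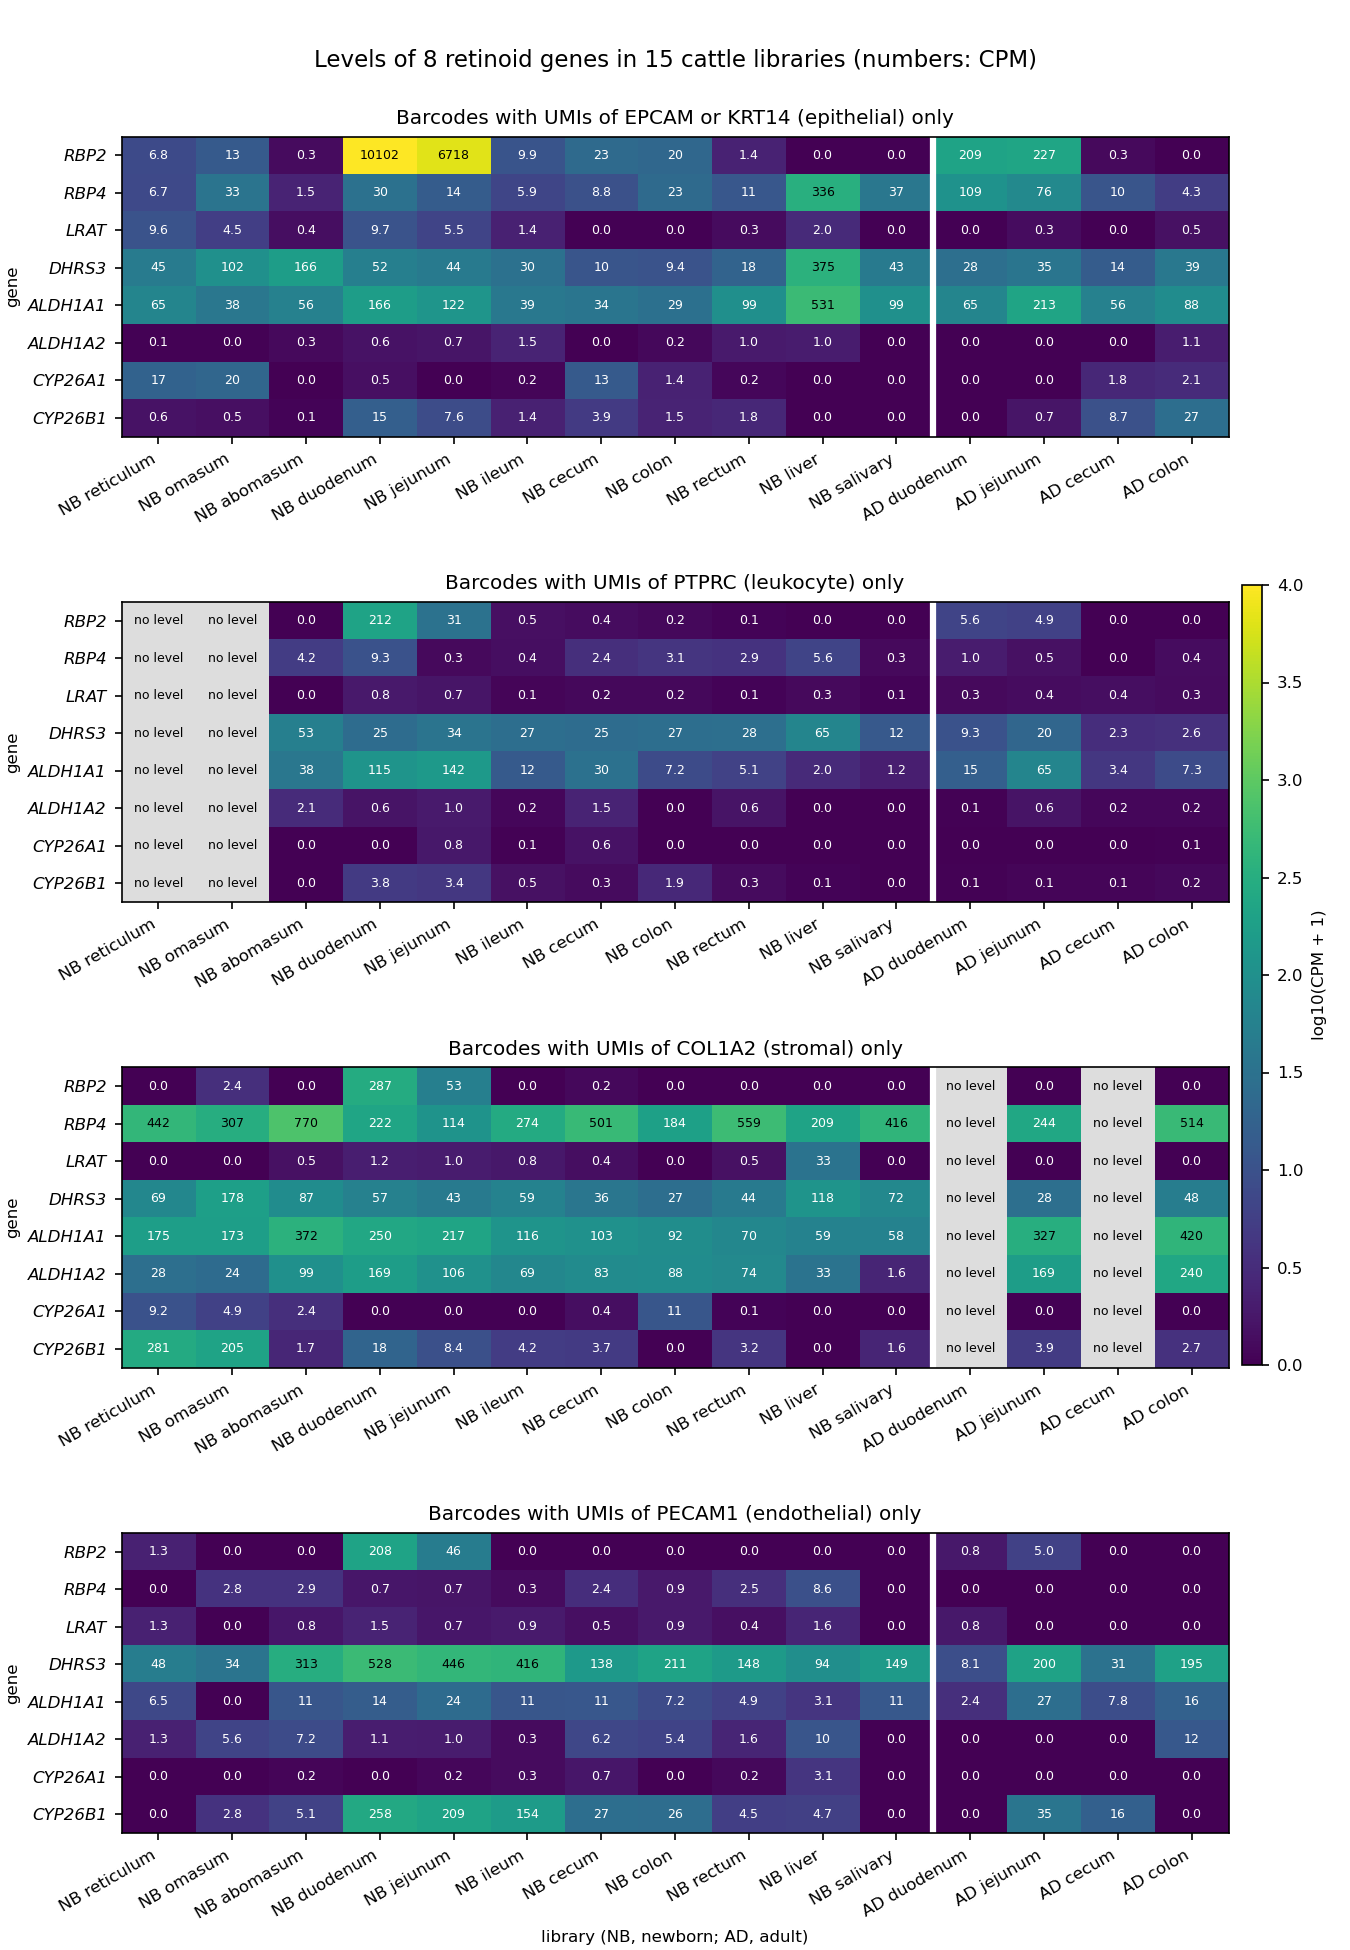
Level of each gene in CPM (numbers in the cells; colour is log10 of CPM plus 1) by lineage and library, NB libraries left of the white line and AD libraries right of it, with grey cells for groups of under 20 barcodes. RBP2 reached 10102 CPM in NB duodenal epithelium, RBP4 and ALDH1A2 filled the stromal panel, and DHRS3 stood highest in the endothelial panel.

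RBP2, the carrier that holds retinol inside absorptive cells, was the most strongly read of the 8 genes and stood highest in the epithelium of the newborn upper small intestine. It reached 10102 CPM (10071 to 10134) in NB duodenum, where it was the 10th most abundant gene of the epithelial group. In NB jejunum it reached 6718 CPM (6674 to 6763) and was the 19th. The next NB tissue down the tract, the ileum, held 9.88 CPM (7.62 to 12.6). The level thus dropped steeply between jejunum and ileum. Enterocyte genes dropped with it over all kept barcodes of the library, APOA4 from 210 to 0.739 CPM, FABP2 from 832 to 14.1 CPM, ANPEP from 32.8 to 12.5 CPM, SI from 3.50 to 0.802 CPM and LCT from 6.19 CPM to 0 UMIs. The epithelial group of NB ileum also held 670 CPM of the leukocyte markers, against 38.6 CPM in NB jejunum, and the part of these in the difference was not tested. Its 234 absorptive barcodes held 17.1 CPM of RBP2 (13.0 to 22.0). It did not go on falling in order, since NB cecum held 22.8 CPM (17.6 to 29.1) and NB colon 20.3 CPM (17.6 to 23.3), with intervals that overlapped each other and lay above that of the ileum. In NB colon 77 of the 197 UMIs lay in 1 barcode, and without it the level was 12.4 CPM (10.3 to 14.8), which overlapped the ileum. NB rectum held 1.44 CPM. The stratified epithelium of the forestomachs held 6.81 CPM (6.21 to 7.45) in reticulum and 12.5 CPM (11.9 to 13.2) in omasum, and abomasum held 0.33 CPM. No RBP2 UMI was read in the 160 epithelial barcodes of liver or the 27 of salivary gland. The latter held 161569 UMIs in all, so that a low level could go unread. Salivary markers were low over all kept barcodes of that library (AQP5 1.28 CPM, BPIFA2A 2.80 CPM). Across the 11 NB epithelial groups RBP2 ran from 0 to 10102 CPM with a median of 9.88 CPM.

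In the adult, RBP2 was again read in duodenum and jejunum and hardly elsewhere. AD duodenum held 209 CPM (162 to 265), from 67 UMIs that lay in 9 of 52 barcodes, and AD jejunum 227 CPM (210 to 245), from 663 UMIs in 271 barcodes, and these intervals overlapped. In AD duodenum 1 barcode carried 49 of the UMIs, and without it the level was 56.7 CPM (33.6 to 89.7), below AD jejunum. AD cecum had 1 UMI in 319 barcodes (0.262 CPM) and AD colon 0 UMIs in 186 barcodes. NB levels were above AD levels in all 4 tissues, by 48.4-fold (38.1 to 62.4) in duodenum, 29.6-fold (27.4 to 32.0) in jejunum and 87.0-fold (15.1 to 3490) in cecum, and by at least 12.7-fold in colon, set against 3 UMIs in the AD group (the exact interval of that ratio begins at 10.2). RBP2 was thus called NB higher in 4 of 4 epithelial comparisons, beside 3.2%, 1.62%, 2.27% and 1.1% of all tested genes in duodenum, jejunum, cecum and colon. Without the AD barcode with the most RBP2 UMIs the ratio was 178 (113 to 300.4) in duodenum and 34.3 (31.6 to 37.3) in jejunum. The duodenal and jejunal calls held under each alternative processing tried. The cecal call was lost when barcodes with several gates were kept, and the colonic call with no upper limit on genes and UMIs, with under 10% mitochondrial UMIs, with no filter on barcodes, and without the 1 NB barcode of 77 UMIs (log2 ratio 1.80). With under 10% mitochondrial UMIs the level of NB duodenum was 5724 CPM.

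**Figure D2:**
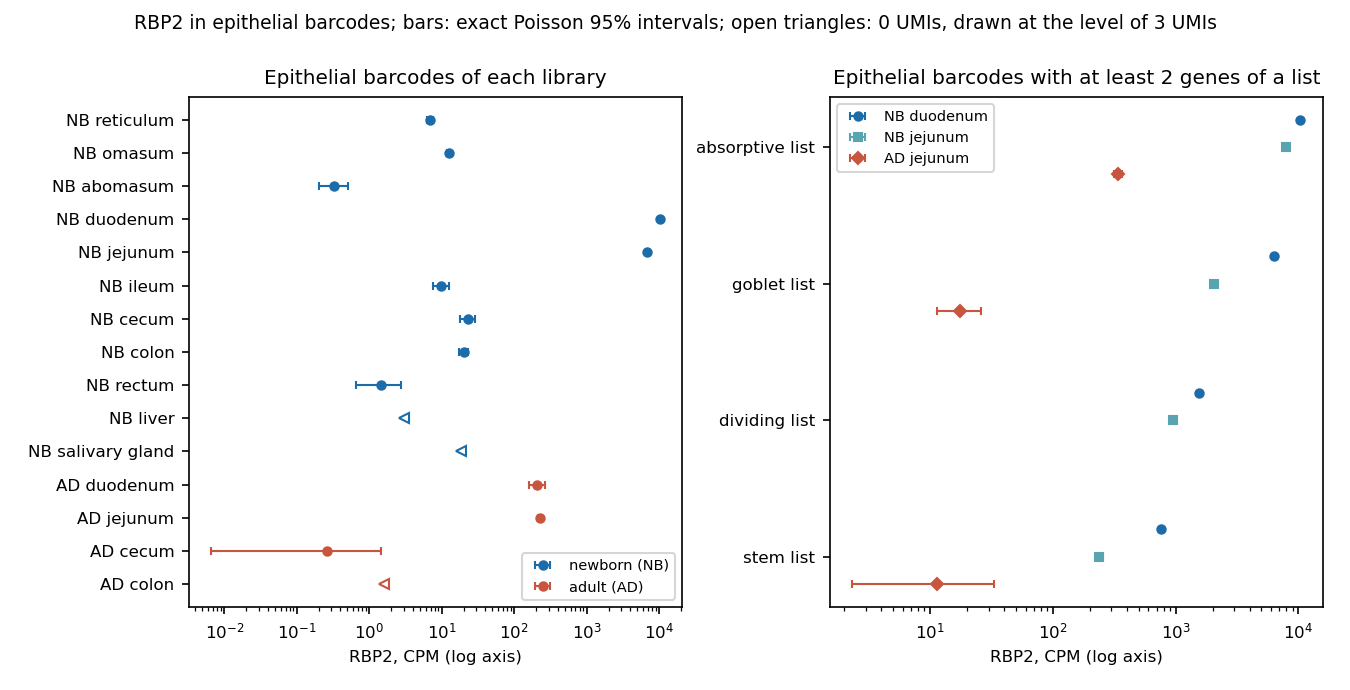
RBP2 level in epithelial barcodes on log axes of CPM, by library (left; blue NB, red AD) and within 3 libraries by marker list (right), with bars for Poisson 95% intervals and open triangles for groups of 0 UMIs drawn at the level of 3 UMIs. NB duodenum and NB jejunum, at 10102 and 6718 CPM, lie far right of AD duodenum and AD jejunum, at 209 and 227 CPM. In jejunum the distance is seen within the absorptive, goblet and stem lists.

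RBP2 differed between kinds of epithelial barcode, and the distance between stages was seen within each kind that could be compared. A barcode could be in more than 1 list, so the lists below are not separate sets of barcodes. Barcodes with UMIs of at least 2 absorptive genes (APOA1, APOA4, FABP2, VIL1, ANPEP) held 10390 CPM in NB duodenum, 7887 CPM in NB jejunum and 339 CPM in AD jejunum. Barcodes of the goblet list (TFF3, AGR2, SPINK4, CLCA1) held 6321, 2055 and 17.7 CPM, and those of the stem list (LGR5, OLFM4, ASCL2, SMOC2) 768, 240 and 11.3 CPM. Absorptive barcodes were highest and stem barcodes lowest in each of the 3 libraries. NB over AD in jejunum was 23.2-fold (21.5 to 25.1) in absorptive, 116-fold (78.7 to 180) in goblet and 21.2-fold (7.23 to 103) in stem barcodes, the last from 21 AD barcodes. In the large intestine, absorptive barcodes held 60.0 CPM in NB colon and 55.0 CPM in NB cecum against 0.478 CPM in AD cecum. Goblet barcodes of cecum had only 5 NB and 1 AD UMIs. Cecal barcodes of the dividing list (MKI67, TOP2A, CENPF, UBE2C) had 6 and 0, with an exact interval of the ratio from 0.973. Single barcodes spread widely: the 10th, 50th and 90th percentiles were 1, 21 and 428 UMIs in NB duodenum (maximum 1458), 0, 2 and 290 in NB jejunum (maximum 1085), and 0, 0 and 5 in AD jejunum (maximum 95). RBP2 was thus carried by a part of the NB jejunal epithelial barcodes at high numbers, with few UMIs in most of the others.

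RBP2 was also read outside the epithelium of NB duodenum, at 212 CPM in leukocytes, 287 CPM in stromal and 208 CPM in endothelial barcodes. These levels were 2.10%, 2.84% and 2.05% of the epithelial level. The 7 other enterocyte genes compared lay at 1.16 to 4.46% of their epithelial level in the leukocytes, 2.53 to 4.52% in the stromal and 1.66 to 6.39% in the endothelial barcodes, so that RBP2 sat within their range. The leukocyte level was also above that of the large intestine by the 4-fold rule (0.465 to 212 CPM in the 3 small and 0.102 to 0.364 CPM in the 3 large intestinal libraries of the newborn), beside 0.0965% of genes. In NB jejunum RBP2 lay at 0.467% in leukocytes, 0.785% in stromal and 0.686% in endothelial barcodes, again within the ranges of the enterocyte genes (0.385 to 1.54%, 0.773 to 1.59% and 0.602 to 1.31%). Levels within such a range are set aside here and not read as expression of the group. This covers the calls of RBP2 as NB higher in duodenal leukocytes, duodenal and jejunal endothelium and jejunal stroma. The jejunal stromal call was against 0 UMIs in 39 AD barcodes, and 2.28% of all genes tested there were called NB higher. Whether such levels come from free RNA, mixed barcodes or expression was not tested. Single barcodes held up to 124 RBP2 UMIs in NB duodenal leukocytes, 83 in NB jejunal endothelium and 40 in NB jejunal stroma, and the part of mixed barcodes was not tested. The share of barcodes with a RBP2 UMI has to be read against these levels: 90.2% of NB duodenal epithelial barcodes (median 12649 UMIs) had 1, but so had 69.9% of leukocytes (median 8904 UMIs). After thinning each barcode to 1000 UMIs, the shares were 65.4% and 17.9%. The corresponding thinned shares were 45.1% of epithelial and 3.36% of leukocyte barcodes in NB jejunum, and 7.99% and 0.584% in AD jejunum, where the unthinned shares were 68.9%, 22.7%, 23.6% and 1.59% and the median depths 12021, 9928, 9573 and 4556 UMIs.

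RBP4, the protein that carries retinol in plasma, was a gene of the stroma in nearly all tissues. Stromal levels in the 11 NB libraries ran from 114 CPM (108 to 120) in jejunum to 770 CPM (744 to 798) in abomasum, with a median of 307 CPM in omasum. With barcodes of several gates kept, abomasum held 328 CPM. Rectum (559 CPM), cecum (501 CPM), reticulum (442 CPM) and salivary gland (416 CPM) followed abomasum, and ileum (274 CPM), duodenum (222 CPM), liver (209 CPM) and colon (184 CPM) lay below the median. The intervals of reticulum (358 to 540) and salivary gland (367 to 469) overlapped, as did those of duodenum (204 to 241) and liver (143 to 295), whereas abomasum stood clear of rectum (545 to 572) and jejunum clear of colon (163 to 209). Within the stroma, barcodes of the fibroblast list (DCN, LUM, PDGFRA, COL6A3) held 1017 CPM in abomasum and 186 CPM in NB jejunum. Barcodes of the pericyte list (RGS5, NOTCH3, CSPG4, KCNJ8) held 62.8 CPM in NB jejunum and 140 CPM in NB colon, below the fibroblast barcodes of the same libraries.

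In the adult stroma RBP4 was above the newborn level of the same tissue, by less than 4-fold over the whole group. AD jejunum held 244 CPM (187 to 313) from 39 barcodes, giving an NB over AD ratio of 0.467 (0.362 to 0.612). AD colon held 514 CPM (472 to 558) from 158 barcodes, giving a ratio of 0.359 (0.309 to 0.417). In colon the ratio was below 1 in barcodes of the fibroblast list (0.397), the subepithelial list of SOX6, F3, BMP4, BMP5 and BMP7 (0.309), the pericyte list (0.225) and the smooth muscle list of MYH11, ACTG2, DES and CNN1 (0.604). The pericyte barcodes of colon held 139.5 CPM in NB (81 barcodes) and 621 CPM in AD (62 barcodes), AD 4.45-fold higher (3.49 to 5.73). The whole stromal groups of jejunum and colon stayed under the 4-fold threshold. In AD colon the pericyte level was above the 514 CPM of the whole stromal group. These lists share barcodes: of its 158 stromal barcodes, 144 were in the fibroblast list.

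Outside the stroma, RBP4 was read chiefly in liver and in the adult upper intestine. Liver epithelial barcodes held 336 CPM (301 to 374), and 377 CPM where at least 2 hepatocyte genes (ALB, APOH, TF, SERPINA1, AHSG) were read. The UMIs were unevenly spread over the 160 liver epithelial barcodes, with a median of 0, a 90th percentile of 2.1 and a maximum of 90. The highest RBP4 level of any group was that of 119 liver barcodes with hepatocyte genes and none of the gates, at 2666 CPM (2558 to 2777). The liver is known as the main source of plasma RBP4. Epithelium of AD duodenum held 109 CPM and of AD jejunum 75.6 CPM, against 30.0 and 13.8 CPM in the newborn, while AD cecum held 10.2 against 8.78 CPM and AD colon 4.27 against 23.4 CPM. The AD level was thus 3.64-fold higher in duodenum (NB over AD 0.275, 0.196 to 0.396) and 5.49-fold higher in jejunum (0.182, 0.149 to 0.223), near equal in cecum (0.858, 0.498 to 1.45), and the NB level was 5.48-fold higher in colon (2.73 to 12.9). Only jejunum passed the threshold for AD higher, beside 2.47% of all genes tested there, and this call was lost under 4 of 8 alternatives, where its log2 ratio (with 5 CPM added) ran from -2.37 to -1.47. In jejunum the ratio was 0.143 in absorptive and 0.113 in goblet barcodes. RBP4 stayed at or below 9.33 CPM in the leukocytes of each library and had 0 UMIs in the endothelial barcodes of the 4 AD libraries.

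**Figure D3:**
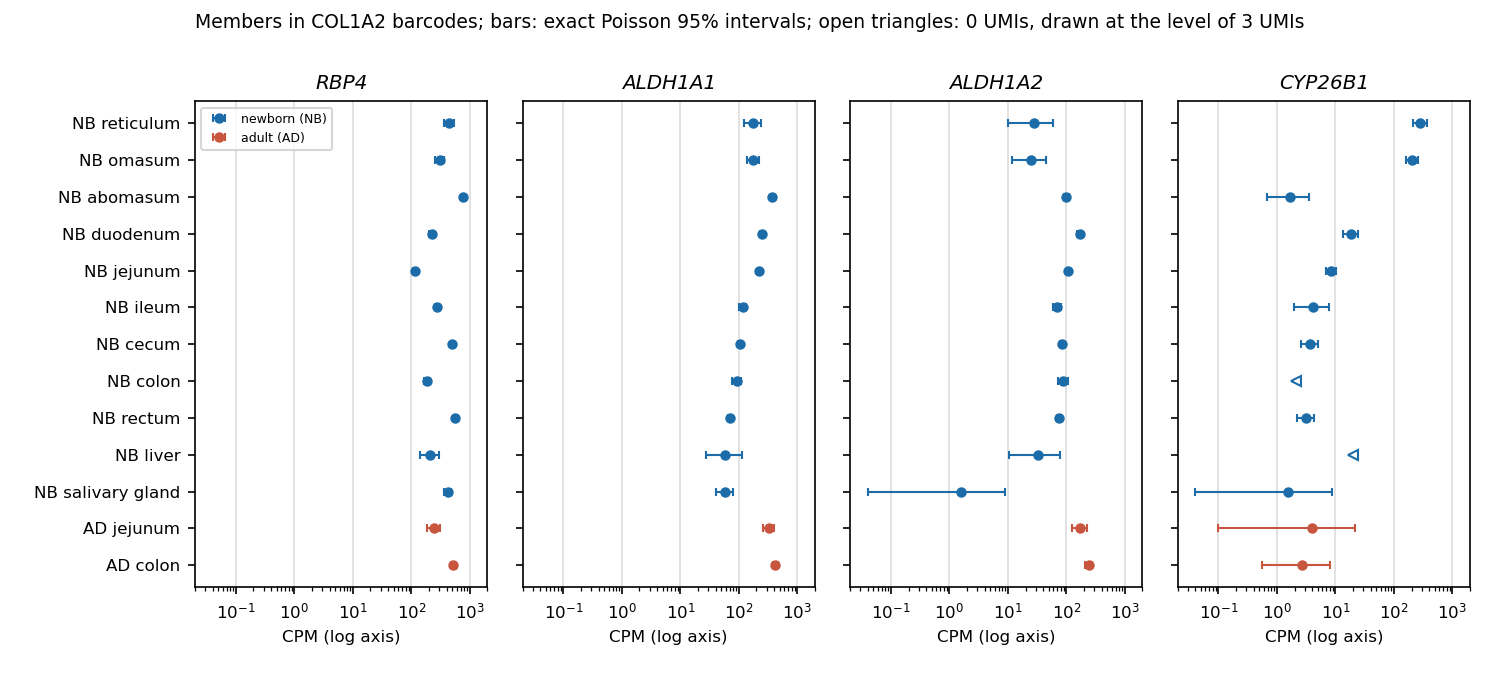
Levels of RBP4, ALDH1A1, ALDH1A2 and CYP26B1 in COL1A2 barcodes of 13 libraries on log axes of CPM (blue NB, red AD; bars are Poisson 95% intervals, open triangles are groups of 0 UMIs drawn at the level of 3 UMIs). RBP4 stayed between 114 and 770 CPM in each library, whereas CYP26B1 was high only in NB reticulum (281 CPM) and NB omasum (205 CPM) among these libraries.

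LRAT, which turns retinol into its storage ester, was read at low levels. Its 1 lineage group at or above 10 CPM was the stroma of NB liver, with 32.7 CPM (10.6 to 76.3) from 5 UMIs in 41 barcodes. Epithelial levels were 9.66 CPM (8.71 to 10.7) in NB duodenum, 9.64 CPM (8.93 to 10.4) in NB reticulum, 5.53 CPM (4.32 to 6.98) in NB jejunum and 4.49 CPM (4.08 to 4.93) in NB omasum. The other NB epithelial groups lay at or below 1.99 CPM. NB duodenum and NB reticulum could not be ordered within their counting error, and both lay above jejunum and omasum. The 4 AD epithelial groups had 2 LRAT UMIs in all. LRAT passed the 10 CPM minimum in no NB against AD comparison. In NB duodenum 378 of the 381 epithelial LRAT UMIs lay in absorptive barcodes, which were 2923 of the 3133 epithelial barcodes.

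DHRS3, the reductase that returns retinal to retinol, was read in every lineage. Endothelium held the highest level of the lineages in 11 of 15 libraries, the exceptions being NB liver and AD duodenum, where epithelium was highest, and NB reticulum and NB omasum, where stroma was. Endothelial levels in the NB libraries ran from 33.5 CPM (17.3 to 58.6) in omasum to 528 CPM (513 to 545) in duodenum with a median of 149 CPM in salivary gland, where 9 of the 13 UMIs lay in 1 of 21 barcodes. Jejunum held 446 CPM (437 to 456) and ileum 416 CPM (394 to 438), abomasum 313 CPM, colon 211 CPM, rectum 148 CPM, cecum 138 CPM, liver 94.2 CPM and reticulum 47.8 CPM. The 3 parts of the small intestine were above the 3 parts of the large intestine, with rectum and cecum, and jejunum and ileum, overlapping in their intervals. The share of all genes with such an order is not given here. Barcodes of the blood vessel list (PLVAP, FLT1, VWF, SOX17, ESM1) held 503 CPM in NB duodenum, 465 CPM in NB jejunum and 450 CPM in NB ileum. Barcodes of the lymphatic list (PROX1, MMRN1, CCL21, PDPN, FLT4) held 841, 632 and 508 CPM there. Lymphatic barcodes were thus higher than blood vessel barcodes in duodenum, jejunum and cecum (193 against 145 CPM), with overlapping intervals in ileum, whereas in abomasum they were lower (130 against 353 CPM), as in rectum (67.4 against 184 CPM).

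Between the stages the endothelial DHRS3 level differed by less than 4-fold in jejunum and colon. AD jejunum held 200 CPM (173 to 229) and AD colon 195 CPM (156 to 242), so that NB over AD was 2.24 (1.94 to 2.59) in jejunum and 1.08 (0.839 to 1.41) in colon. In blood vessel barcodes AD was the higher in both, with 572 CPM in AD jejunum and 516 CPM in AD colon, and ratios of 0.813 (0.675 to 0.988) and 0.596 (0.459 to 0.779), from 35 and 25 AD barcodes. The doubtful PECAM1 groups of AD duodenum (8.14 CPM) and AD cecum (31.4 CPM, 8 UMIs) gave ratios of 64.9 (35.3 to 136) and 4.40 (2.22 to 10.2), of which the former was called NB higher beside 20.7% of the genes tested in that comparison.

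**Figure D4:**
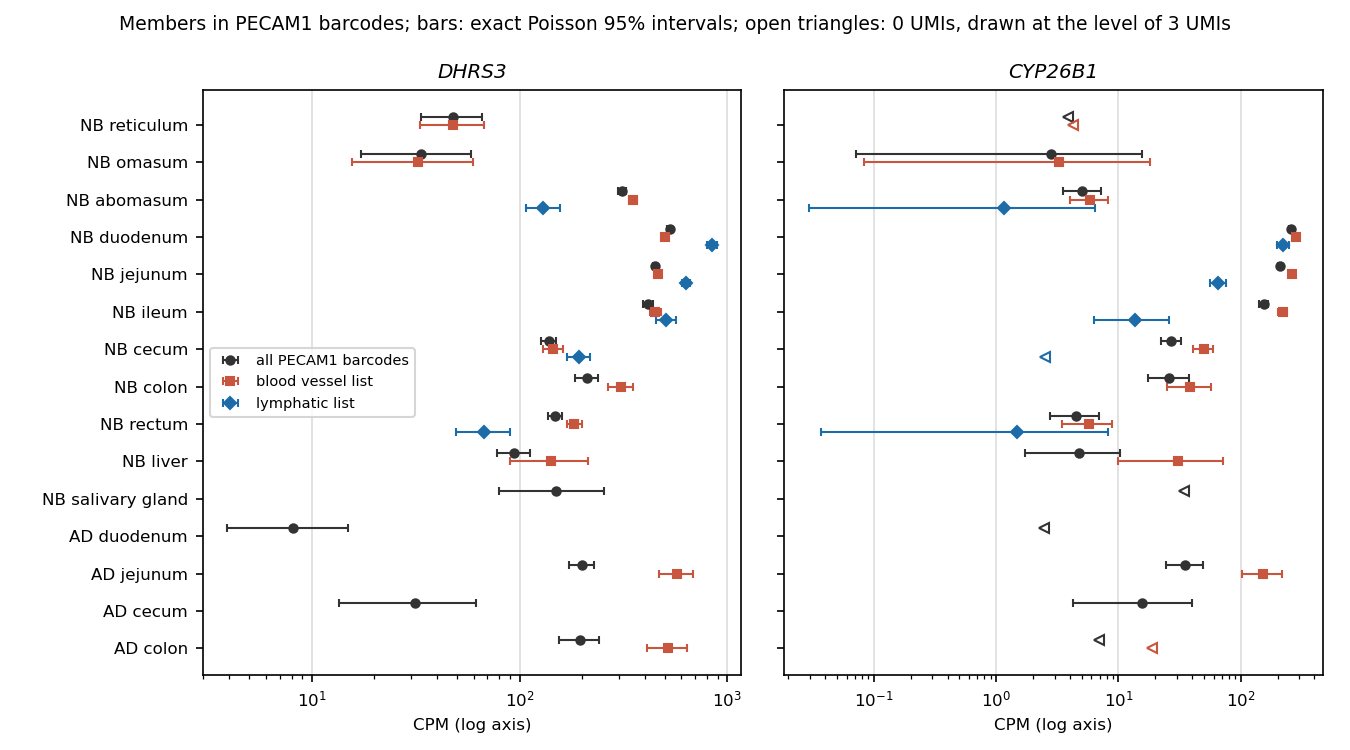
DHRS3 (left) and CYP26B1 (right) in PECAM1 barcodes of each library and in the barcodes among them with at least 2 genes of the blood vessel or the lymphatic list, on log axes of CPM with Poisson 95% intervals (open triangles: 0 UMIs, drawn at the level of 3 UMIs). CYP26B1 was at 258, 209 and 154 CPM in NB duodenum, jejunum and ileum and at 26.8, 26.1 and 4.47 CPM in NB cecum, colon and rectum.

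The highest epithelial DHRS3 levels were 375 CPM (339 to 415) in liver, 166 CPM in abomasum and 102 CPM in omasum, and those of the other NB libraries ran from 9.38 to 52.1 CPM. In colon the AD epithelium was higher, at 39.0 against 9.38 CPM, with an NB over AD ratio of 0.241 (0.175 to 0.332) that stayed short of the threshold once 5 CPM was added. Stromal levels were 27.2 to 178 CPM in the newborn and 27.5 and 48.2 CPM in AD jejunum and AD colon.

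In leukocytes DHRS3 was called NB higher in cecum (24.7 against 2.34 CPM, 10.6-fold, 8.18 to 13.8) and colon (27.0 against 2.63 CPM, 10.3-fold, 8.04 to 13.2), beside 5.87% and 3.22% of the genes tested there. In duodenum and jejunum the ratios were 2.72 and 1.68. The calls were lost under 5 of 8 alternatives in cecum and 3 of 8 in colon, with log2 ratios of 1.91 to 2.95 in both. The difference was not the same in each kind of barcode. In those of the macrophage list (CD68, CD163, C1QA, C1QB, CSF1R) DHRS3 held 34.0 against 32.5 CPM in cecum (1.05-fold, 0.659 to 1.74) and 58.1 against 37.1 CPM in colon (1.57-fold, 1.05 to 2.37). Macrophage barcodes were 362 of 1333 NB and 110 of 7342 AD leukocytes in cecum, and 136 of 1417 NB and 152 of 7310 AD leukocytes in colon, and the part of this make-up in the leukocyte ratios was not tested. In barcodes of the killer list (NCR1, NKG7, GZMB, PRF1) DHRS3 was 14.2-fold higher in NB cecum (17.8 against 1.25 CPM) and 9.41-fold higher in NB colon (16.3 against 1.74 CPM).

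ALDH1A1, an enzyme of retinoic acid synthesis that epithelia are known to use, was read both in epithelium and in stroma. The epithelial level was highest in liver, at 531 CPM (487 to 578), and 592 CPM in barcodes with hepatocyte genes. Among the gut epithelia AD jejunum held 213 CPM (197 to 230), NB duodenum 166 CPM (162 to 170) and NB jejunum 122 CPM (116 to 128), each clear of the next. The remaining epithelial groups lay between 29.5 CPM in NB colon and 99.0 CPM in NB salivary gland. NB over AD was 2.54 (1.66 to 4.10) in duodenum, 0.573 (0.522 to 0.630) in jejunum, 0.616 (0.480 to 0.786) in cecum and 0.337 (0.277 to 0.411) in colon. The adult epithelium was therefore higher in 3 of 4 tissues, and none of the 4 differences passed the threshold.

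In stroma ALDH1A1 ran from 58.3 CPM in NB salivary gland to 372 CPM (354 to 391) in NB abomasum, with an NB median of 116 CPM. Along the newborn intestine it stepped down in order, from 250 CPM in duodenum to 217 CPM in jejunum, 116 CPM in ileum, 103 CPM in cecum, 91.6 CPM in colon and 69.6 CPM in rectum, where the intervals of ileum and cecum, and of cecum and colon, overlapped. AD jejunum held 327 CPM (260 to 405) and AD colon 420 CPM (383 to 460). The AD level was 4.59-fold higher in colon (NB over AD 0.218, 0.178 to 0.266), which was called beside 1.74% of the tested genes and held under each of the 8 alternatives (log2 ratio -2.19 to -2.08). It was seen in colonic fibroblast (0.249), subepithelial (0.214), pericyte (0.191) and smooth muscle (0.275) barcodes. These lists share barcodes: of 158 AD stromal barcodes, 144 were in the fibroblast and 105 in the subepithelial list. In jejunum the ratio was 0.665 (0.535 to 0.838) in all stromal barcodes, 0.867 in fibroblast and 0.326 in pericyte barcodes.

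Leukocytes showed ALDH1A1 chiefly in the upper small intestine, with 142 CPM in NB jejunum, 115 CPM in NB duodenum and 65.2 CPM in AD jejunum. It was called NB higher in duodenum (115 against 15.3 CPM, 7.54-fold, 6.66 to 8.53) and in cecum (30.5 against 3.39 CPM, 8.97-fold, 7.23 to 11.2), beside 4.28% and 5.87% of the genes tested in the leukocytes of duodenum and cecum. Both calls held under the 8 alternatives. In barcodes of the macrophage list the ratio was 1.32 (1.16 to 1.49) in duodenum, 1.08 in jejunum, 0.623 (0.497 to 0.787) in cecum and 0.218 (0.159 to 0.295) in colon, where AD macrophage barcodes held 211 CPM against 46.0 CPM. Macrophage barcodes were 261 of 528 NB but 589 of 7387 AD leukocytes in duodenum. Endothelial levels of ALDH1A1 stayed at or below 27.1 CPM.

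ALDH1A2, the retinoic acid synthesising enzyme known from mesenchyme, was read in the stroma and hardly elsewhere. Stromal levels were 169 CPM (153 to 186) in NB duodenum, 106 CPM in jejunum, 99.1 CPM in abomasum, 88.0 CPM in colon, 83.3 CPM in cecum, 74.4 CPM in rectum (the NB median) and 69.0 CPM in ileum. Liver (32.7 CPM, 5 UMIs), reticulum (27.7 CPM) and omasum (24.4 CPM) lay below the gut, and salivary gland had 1 UMI in 113 barcodes (1.58 CPM). NB duodenum was clear of jejunum, and the intervals of neighbours from jejunum down to ileum overlapped. The highest level outside the stroma was 11.6 CPM, from 5 UMIs of 1 barcode in AD colon endothelium, and epithelial groups stayed at or below 1.52 CPM and leukocytes at or below 2.11 CPM.

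AD stroma had more ALDH1A2 than NB stroma, with 169 CPM (122 to 228) in jejunum and 240 CPM (212 to 271) in colon. The NB over AD ratio was 0.628 (0.464 to 0.872) in jejunum and 0.367 (0.294 to 0.456) in colon, short of the threshold. In colon it was 0.418 in fibroblast, 0.424 in subepithelial, 0.273 in pericyte and 0.348 in smooth muscle barcodes, lists that share barcodes. In jejunum it was 0.792 (0.578 to 1.11) in fibroblast and 0.713 (0.427 to 1.29) in pericyte barcodes, and both intervals held 1. Over the whole stromal groups, RBP4, ALDH1A1 and ALDH1A2 were each higher in the adult of both tissues. ALDH1A1 in colon was the 1 call among these 6 values. The share of all genes with this direction in both tissues is not given here. Fibroblast barcodes were 1525 of 3107 NB and 24 of 39 AD stromal barcodes in jejunum, and 148 of 223 and 144 of 158 in colon. The part of this make-up was not tested.

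Over all lineages together, the levels of the 3 stromal genes were correlated. The groups compared hold every lineage, so r includes the contrast of stroma with the other lineages. Within the stroma the orders of libraries differed: RBP4 was lowest in NB jejunum (114 CPM), where ALDH1A2 was among its highest NB levels. RBP4 lay above its NB median in salivary gland and reticulum, where ALDH1A2 was low. Over 55 lineage and library groups, which share depth and background RNA within a library, Pearson's r of log2(CPM + 5) was 0.743 for RBP4 with ALDH1A1, 0.741 for RBP4 with ALDH1A2 and 0.517 for ALDH1A1 with ALDH1A2. Within NB jejunal stroma, 540 barcodes held UMIs of both aldehyde dehydrogenases where 374 were expected from their shares within 5 strata of depth (1.44-fold). RBP4 was read with ALDH1A1 in 496 barcodes (353 expected) and with ALDH1A2 in 386 (283 expected). ALDH1A1 and ALDH1A2 were also read together in more barcodes than the strata gave in NB ileum (44 against 27.2), abomasum (147 against 110), duodenum (102 against 77.4) and rectum (177 against 142), and near the expected number in NB cecum (148 against 140) and AD colon (74 against 67.6). Over the libraries with a value, the ratio of observed to expected ran from 1.06 to 1.62 for this pair, from 0.971 in AD colon to 1.40 in NB jejunum for RBP4 with ALDH1A1, and from 0.999 in NB rectum to 1.36 in NB jejunum for RBP4 with ALDH1A2.

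CYP26A1, which clears retinoic acid, was read in the epithelium of 3 newborn tissues. NB omasum held 20.0 CPM (19.1 to 20.8; 1995 UMIs), NB reticulum 17.4 CPM (16.4 to 18.4; 1203 UMIs) and NB cecum 12.6 CPM (8.86 to 17.5; 36 UMIs). The other epithelial groups lay at or below 2.14 CPM, the level of AD colon. Within the forestomachs the level was higher in barcodes of differentiated keratinocyte genes (KRT4, KRT6A, SBSN, KRTDAP), at 24.9 CPM in omasum and 23.8 CPM in reticulum, than in barcodes of the stem list, whose genes are known from intestinal crypts, at 9.11 and 3.95 CPM. The basal keratinocyte list (KRT14, KRT5, TP63, COL17A1, ITGB4) took in nearly all epithelial barcodes (9835 of 9924 and 6495 of 6527) and held 20.0 and 17.4 CPM. RBP2 showed the same order, with 16.3 and 9.64 CPM in differentiated and 4.30 and 1.98 CPM in stem barcodes. DHRS3 and RBP4 had the opposite order in both forestomachs: DHRS3 held 91.3 and 35.9 CPM in differentiated against 112 and 55.9 CPM in stem barcodes, and RBP4 24.9 and 5.00 CPM against 41.3 and 11.1 CPM.

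In cecum the AD epithelium held 1.84 CPM of CYP26A1 (7 UMIs), an NB over AD ratio of 6.89 (3.02 to 18.3). In absorptive barcodes of cecum it was 42.0 CPM (26 UMIs, 51 barcodes) against 3.35 CPM, a ratio of 12.6 (5.31 to 34.3). The stroma of NB colon held 10.7 CPM (15 UMIs, of which 10 lay in 1 barcode) against 0 UMIs in AD colon, 3.93-fold when set against 3 UMIs in the AD group. Neither the epithelial nor the stromal comparison was called with 5 CPM added.

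CYP26B1, the other enzyme of retinoic acid breakdown, was read in the endothelium of the small intestine and in the stroma of the forestomachs. Endothelial levels were 258 CPM (247 to 270) in NB duodenum, 209 CPM (202 to 216) in jejunum and 154 CPM (141 to 168) in ileum, then 26.8 CPM (22.1 to 32.3) in cecum, 26.1 CPM (17.5 to 37.5) in colon and 4.47 CPM (2.73 to 6.91) in rectum. Abomasum held 5.08 CPM, the NB median, and liver 4.71 CPM. Each step down the intestine was clear of the next except from cecum to colon. The small and large intestine did not overlap and their medians, 209 and 26.1 CPM, gave a log2 ratio of 2.78, which passed the 4-fold threshold beside 0.0811% of all genes. Endothelial DHRS3 also did not overlap between them but stayed short of the threshold. The share of all genes that do not overlap, without the threshold, is not given here. Epithelial DHRS3 (29.8 to 52.1 against 9.38 to 17.9 CPM) and stromal ALDH1A1 (116 to 250 against 69.6 to 103 CPM) did not overlap either. Barcodes of the blood vessel list held 284 CPM in NB duodenum, 262 CPM in jejunum, 220 CPM in ileum, 49.7 CPM in cecum and 38.4 CPM in colon, and those of the lymphatic list 223 CPM in duodenum, 65.1 CPM in jejunum, 13.5 CPM in ileum and 0 in cecum. The lymphatic level thus stood below the blood vessel level by a margin that was wider in ileum than in duodenum.

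The AD endothelium of jejunum held 35.1 CPM (24.5 to 48.8; 35 UMIs) of CYP26B1, and NB over AD was 5.95 (4.27 to 8.55), called beside 2.29% of the tested genes. The AD group held 794 CPM of the leukocyte and 1334 CPM of the endothelial markers, against 240 and 3100 CPM in NB, and CCR9, known from lymphocytes, was AD higher there (26.1 against 0.883 CPM). The part of these in the difference was not tested. The call was lost with a gate of at least 2 UMIs and with scaling by the median ratio. In blood vessel barcodes the ratio was 1.73 (1.21 to 2.56), from 262 CPM in 2634 NB and 152 CPM in 35 AD barcodes. AD colon endothelium had 0 UMIs in 56 barcodes against 26.1 CPM in NB, at least 3.75-fold against 3 UMIs (exact interval from 2.86), called beside 2.51% of genes and lost when barcodes with several gates were kept. The doubtful AD groups gave 0 UMIs in duodenum, 106-fold when set against 3 UMIs, and 15.7 CPM (4 UMIs) in cecum, a ratio of 1.71 (0.649 to 6.38).

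In stroma CYP26B1 was high in NB reticulum (281 CPM, 215 to 361; 61 UMIs in 89 barcodes) and NB omasum (205 CPM, 163 to 254; 84 UMIs in 210 barcodes), and the intervals of these groups overlapped. With barcodes of several gates kept, the level of reticulum was 72.7 CPM. NB duodenum followed with 18.3 CPM and NB jejunum with 8.41 CPM, and the stroma of the other libraries stayed at or below 4.16 CPM. The glandular stomach, abomasum, thus lacked the level of the neighbouring forestomachs, with 1.70 CPM from 1064 barcodes. In barcodes of the fibroblast list the forestomach levels were 346 and 217 CPM.

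The epithelial CYP26B1 level differed between stages in opposite directions along the gut. In colon AD held 26.7 CPM (19.8 to 35.2; 50 UMIs) and NB 1.55 CPM (15 UMIs), so that AD was 17.3-fold higher (NB over AD 0.0579, 0.0302 to 0.105), called beside 2.61% of the genes. Absorptive barcodes of colon held 30.6 CPM in AD and 2.00 CPM in NB. In duodenum NB held 15.1 CPM and AD 0 UMIs, at least 1.62-fold against 3 UMIs (exact interval from 1.31) given the 52 AD barcodes, called beside 3.2% of the genes, a call that was lost under 4 of 8 alternatives, as the colonic call was under 3 of 8.

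Over all 14 comparisons of NB with AD, 53 of 112 gene and comparison pairs reached 10 CPM. Of these, 17 were called NB higher and 3 AD higher, beside 4.24% and 2.21% of all tests over genes. The 17 were 8 of RBP2, 4 of CYP26B1, 3 of DHRS3 and 2 of ALDH1A1. The 3 were RBP4 in jejunal epithelium, ALDH1A1 in colonic stroma and CYP26B1 in colonic epithelium. Without the PECAM1 comparisons of duodenum and cecum, 46 pairs were tested, with 14 called NB higher and 3 AD higher, beside 2.6% and 2.27% of all tests over genes in the same comparisons, and without RBP2 outside the epithelium too, 11 were NB higher. Those 11 were 5 in epithelium, 4 in leukocytes, 0 in stroma and 2 in endothelium. LRAT was not tested, and ALDH1A2 (3 pairs) and CYP26A1 (2 pairs) gave 0 calls. The median log2 ratio of all genes lay between -0.37 and -0.03 in epithelium, leukocytes and stroma, but at 1.15 in duodenal, 0.41 in jejunal, 0.47 in cecal and 0.33 in colonic endothelium, so that endothelial ratios are to be read relative to that shift.

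**Figure D5:**
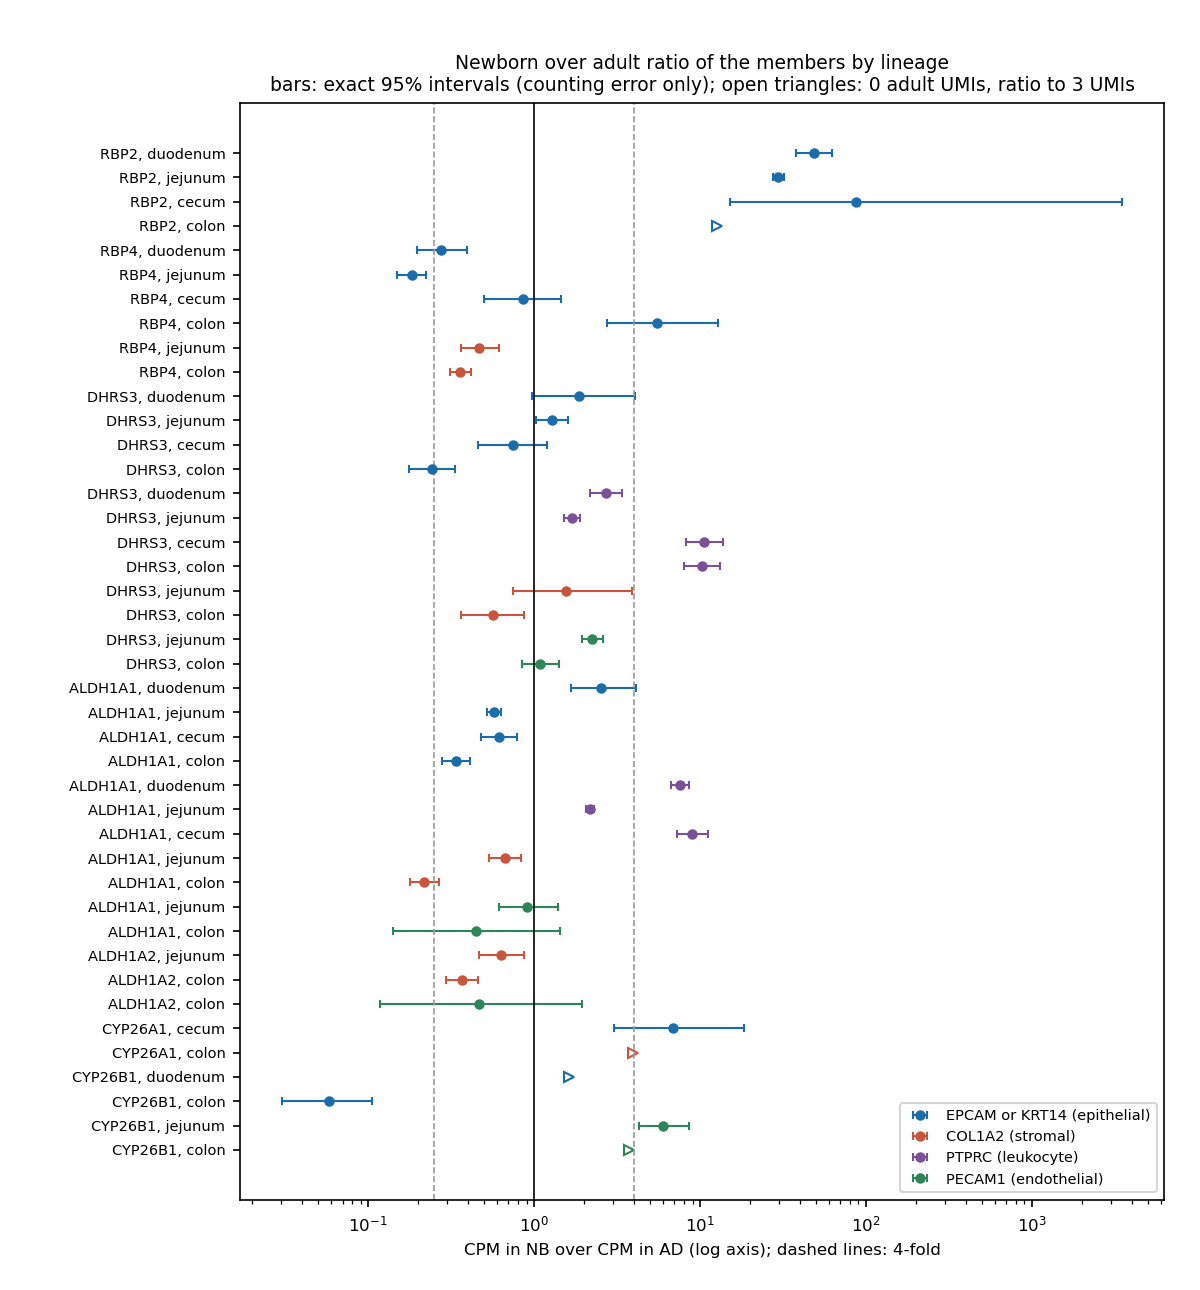
Ratio of NB to AD level on a log axis for each tested gene, tissue and lineage (blue epithelial, red stromal, purple leukocyte, green endothelial), leaving out the PECAM1 groups of duodenum and cecum and RBP2 outside the epithelium. Bars are 95% counting intervals, open triangles set the NB level against 3 UMIs in AD groups of 0 UMIs, and dashed lines mark 4-fold; RBP2 lies furthest right, with ratios of 29.6 to 87.0 and a triangle at 12.7 in colon, and CYP26B1 in colonic epithelium at the far left with 0.0579.

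Genes of 5 further lists of the retinoid pathway were counted the same way. Uptake, carotene cleavage and ester turnover (10 genes) gave 4 calls NB higher and 0 AD higher of 55 tests that reached 10 CPM, retinol and retinal oxidation or reduction (14 genes) 2 and 4 of 54, and retinoic acid synthesis and breakdown (5 genes) 1 and 0 of 11. The nuclear receptors gave 6 and 0 of 67, and genes known to respond to retinoic acid 11 and 6 of 74. Over all genes, 4.24% of tests were called NB higher and 2.21% AD higher. Without the PECAM1 comparisons of duodenum and cecum the counts were, in the same order, 3 and 0 of 47, 1 and 4 of 48, 1 and 0 of 10, 0 and 0 of 55, and 9 and 5 of 61, beside 2.6% NB higher and 2.27% AD higher over all genes in the same comparisons.

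Several pathway genes were called in more than 1 tissue, among them FABP5 and CRABP1, which are not in the counts above. Over all genes tested in at least 2 tissues of a lineage, 1.63% were NB higher and 2.4% AD higher in at least 2 in epithelium, 4.23% and 2.79% in leukocytes, 0.272% and 0.618% in stroma, and 6.45% and 1.57% in endothelium. In epithelium RARRES1, a gene known to be induced by retinoids, was NB higher in duodenum (368 against 81.1 CPM), jejunum (292 against 55.5 CPM) and colon (92.9 against 6.40 CPM). SDR16C5, a retinol dehydrogenase, was AD higher in duodenum (31.2 against 1.12 CPM), jejunum (54.4 against 1.56 CPM) and colon (54.4 against 3.92 CPM). FABP5, a fatty acid carrier that also binds retinoic acid, was NB higher in the epithelium of jejunum (83.0 against 8.90 CPM) and cecum (57.3 against 1.05 CPM) and in the stroma of jejunum (258 against 31.5 CPM) and colon (32.2 against 0.909 CPM). Endothelium held far more FABP5, 5781 CPM in NB jejunum and 2392 CPM in NB cecum, and the epithelial level was 1.44% of it in NB jejunum, below the 1.64 to 2.35% of endothelial marker genes there, and 2.39% in NB cecum, above their 0.608 to 1.47%. The FABP5 level of NB jejunal epithelium, which did not rise above that range, is set aside too, and its source was not tested. No such range is given for the stromal FABP5 levels. In leukocytes CCR9, the gut homing receptor, was AD higher in duodenum (258 against 4.67 CPM) and jejunum (61.1 against 4.80 CPM), with 21.8 against 10.3 CPM in cecum and the other order in colon (9.01 against 18.9 CPM). Barcodes of the T cell list (CD3E, CD3D, CD3G, CD5) were 24 of 528 NB and 5774 of 7387 AD leukocytes in duodenum. In jejunum they were 59 of 1575 NB and 3077 of 6718 AD leukocytes. The part of this make-up in the CCR9 differences was not tested. CRABP1, a cellular retinoic acid carrier, was NB higher in leukocytes of cecum (56.5 against 7.78 CPM) and colon (127 against 4.46 CPM). RARRES1 in leukocytes was NB higher in duodenum (889 against 77.4 CPM) and cecum (172 against 34.9 CPM), and RARRES2, which encodes the chemoattractant chemerin, in duodenum (28.8 against 3.34 CPM), cecum (31.0 against 1.89 CPM) and colon (62.6 against 2.01 CPM). Epithelium held more RARRES2, 1011 CPM in NB duodenum and 425 CPM in NB colon. The leukocyte levels were 2.85% and 14.7% of these, within the 1.16 to 4.46% and 1.12 to 17.6% of the enterocyte genes. The duodenal level is set aside by the rule given for RBP2, and the colonic range is too wide to tell levels apart. In NB colon stroma (1350 CPM) and endothelium (588 CPM) held more RARRES2 than epithelium. In NB cecum epithelium held 43.9 CPM and endothelium 295 CPM. The part of RNA from these groups in the leukocyte levels was not tested. In endothelium FABP5 and RARA, a retinoic acid receptor, were NB higher in duodenum and cecum, the comparisons with the doubtful AD groups, and not called in jejunum or colon. Of the pathway genes, those called for a lineage in at least 5 libraries were FABP5 (endothelial, 10 libraries), SDR16C5 (epithelial, 8), TGM2 (endothelial, 7), LPL and RXRG (stromal, 6 each), RDH16 (epithelial, 5) and ITGB7 (leukocyte, 5). Of all genes tested in at least 5 libraries, 3.29% were called in at least 5 for epithelium, 1.55% for leukocytes, 4.18% for stroma and 1.81% for endothelium.

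The genes most alike to each of the 8 in their level over the same 55 groups were sought among 12807 genes, by Pearson's r of log2(CPM + 5). RBP2 was closest to the apolipoprotein genes APOA4 (r = 0.940) and APOC3 (0.900) and to the nucleoside transporter gene SLC28A2 (0.896). ALDH1A2 was closest to TCF21 (0.962), RGS5 (0.951) and PDZRN3 (0.947), of which TCF21 encodes a mesenchymal transcription factor. RBP4 lay near C4A (0.899), PRKG1 (0.881) and PTPRD (0.877), and ALDH1A1 near GSTM1 (0.864), BMPR1A (0.856) and FAT1 (0.789). CYP26A1 lay near GRHL3 (0.813), BNIPL (0.765) and DLX3 (0.761), of which GRHL3 encodes a transcription factor of surface epithelia. DHRS3 was nearest to BCAM (0.790), ABHD14A (0.766) and MEIS2 (0.756), and LRAT to EYA4 (0.765), GDF2 (0.738) and C21H14orf180 (0.738). CYP26B1 was nearest to NCAM2 (0.758), followed by RARB (0.655), a retinoic acid receptor, and FAP (0.645). Between the 8 genes themselves, DHRS3 and CYP26B1 had an r of 0.544, and the pairs not named here or above stayed at or below 0.326.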

How the data were processed

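Single cells were captured with the 10x 3' chemistry. The deposited matrices hold raw UMI counts per gene and barcode, which the authors made with Cell Ranger 3.1.0 (per the submitters' processing notes) on the ARS-UCD1.2 assembly, without normalization. The study's limits on barcodes were applied: a gene number of 500 to 4000, fewer than 50000 UMIs, and less than 40% of UMIs from the 13 mitochondrial genes. No doublet caller was run, and barcodes with UMIs of more than 1 of the 4 gates were set aside. UMIs were summed over groups of at least 20 barcodes and divided by all UMIs of the group to give CPM.

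Calls needed 10 CPM and a 4-fold difference with 5 CPM added. Intervals have a level of 95%, and folds against 0 UMIs were set against 3 UMIs in the whole group. A barcode belonged to a marker list with UMIs of at least 2 of its genes (9 marker genes were not used here). Lists were not exclusive, so 1 barcode could be in several. Thinning was to 1000 UMIs by hypergeometric expectation. The most alike genes were sought over groups of at least 20 barcodes and 100000 UMIs, leaving out identifiers with no symbol. Named genes were the 8 members in each comparison, pathway genes called in at least 2 tissues of a lineage or for a lineage in at least 5 libraries, and the 3 most alike genes. The 8 genes, the lists and the rules were chosen with earlier results of these data known. Epithelial lists in NB against AD, leukocyte lists in barcodes with no gate, and the comparisons without the PECAM1 groups of duodenum and cecum, without duodenal epithelium, without AD duodenum or without the barcode with the most RBP2 UMIs were added after seeing the data. Code was tested on simulated data. Results of 2 of the lists are not reported here. Sequences of these genes were not used here. Python 3.11.15, NumPy 2.4.6, SciPy 1.17.1, pandas 2.3.3 and matplotlib 3.10.9 were used.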

Additional observations from a re-analysis of the deposited data

Results flagged for a closer look

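The epithelial CYP26B1 level moved in opposite directions between stages in duodenum and colon. The log2 ratio of NB to AD, with 5 CPM added, was 2.01 in duodenum and -2.28 in colon, and the difference between the tissues was not tested, since each tissue had 1 library per stage. The duodenal value rests on 52 AD barcodes with 0 UMIs.

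RBP2 was read in barcodes that carried none of the gates in NB omasum, at 40.6 CPM (27.2 to 58.3; 29 UMIs in 208 barcodes), above the 12.5 CPM of the epithelial barcodes of that library. The 29 UMIs lay in 13 barcodes. The 208 barcodes held 534 CPM of epithelial, 55.9 CPM of leukocyte, 1031 CPM of stromal and 555 CPM of endothelial markers.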

How the results depend on the processing

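With 1 library per group, depth and barcode number limit every value. The 17 calls NB higher ranged from 13 to 23 and the 3 AD higher from 1 to 4 over the alternatives: a gate of at least 2 UMIs (13 comparisons and 13 libraries remained), several gates kept, no upper limit, under 10% mitochondrial UMIs, no filter on barcodes, the mean of single-barcode CPM, 1 CPM added, and scaling by the median ratio. Calls AD higher became 1 with several gates kept and 1 with no filter on barcodes. With several gates kept, epithelial lineage calls became 6 and endothelial ones 5, and stromal calls fell for RBP4 (11 to 9), ALDH1A2 (10 to 7) and ALDH1A1 (3 to 1). Over all genes, 4738 calls NB higher and 2469 AD higher became 8029 and 4396 with 1 CPM added, and 2476 were NB higher without the PECAM1 comparisons of duodenum and cecum. The cause was not tested. Of the 20 calls, 10 were kept under every alternative, and of 33 pairs not called, 10 were called under at least 1. Levels ranged from 5724 to 10354 CPM for RBP2 in NB duodenal epithelium, 328 to 927 for RBP4 in NB abomasal stroma, 370 to 563 for DHRS3 in NB duodenal endothelium, and 72.7 to 314 for CYP26B1 in NB reticular stroma. For LRAT in NB liver stroma the range was 22.9 to 59.1 CPM. With at least 3 genes of the absorptive list, RBP2 held 11481 CPM in NB duodenum, 9680 in NB jejunum and 559 in AD jejunum. Without the NB barcode with the most RBP2 UMIs the colonic call was lost (log2 ratio 1.80). With 1 CPM added, the most alike gene changed for RBP4 only. The 3 most alike genes stayed the same for DHRS3 only, and RARB and FAP were no longer among those of CYP26B1. No replicate could be left out. No paired analysis was run: the 4 tissues with both stages could be paired, but all AD libraries came from a single cow.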

Other observations

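In the stratified epithelium of the forestomachs, some of the 8 genes were read together in single barcodes and others apart. RBP2 and CYP26A1 shared 86 barcodes in NB reticulum where 35.3 were expected from their shares within 5 strata of depth, and 95 against 85.4 in NB omasum. ALDH1A1 and CYP26A1 shared 312 against 213 and 340 against 249, and RBP2 and ALDH1A1 238 against 155 and 302 against 250. RBP2 and RBP4 shared 4 barcodes against 19.6 expected in reticulum and 23 against 122 in omasum, and RBP2 and DHRS3 66 against 125 and 219 against 411. RBP4 and CYP26A1 shared 8 against 26.9 and 56 against 127.

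In NB omasum RBP4 was highest among the 237 epithelial barcodes with UMIs of at least 2 of KRT7, KRT19, SOX9, SPP1 and CFTR, at 145 CPM (131 to 160), against 33.2 CPM in all epithelial barcodes. The same barcodes held 4.83 CPM of CYP26A1, against 20.0 CPM in all. In NB reticulum the corresponding RBP4 levels were 14.1 and 6.65 CPM.

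Barcodes with no gate but with UMIs of at least 2 of CSF3R, S100A8, S100A9 and CXCR2 held RBP2 at 105 CPM in NB omasum (45 barcodes, 29 UMIs) and 43.7 CPM in NB reticulum (59 barcodes). All barcodes with no gate held 534 CPM of epithelial and 55.9 CPM of leukocyte markers in NB omasum, and 282 and 28.4 CPM in NB reticulum. Stromal and endothelial markers were at 1031 and 555 CPM in NB omasum and 491 and 250 CPM in NB reticulum. The cell type of the barcodes with RBP2 was not tested. ALDH1A1 in barcodes with no gate and at least 2 macrophage genes held 374 CPM in AD colon, 235 in AD jejunum, 214 in AD duodenum and 203 in AD cecum.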
